A study of Mus musculus with 9 samples.

Results

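The genes described here are 38 listed components of the endoplasmic reticulum (ER) that fold proteins, sense folding stress or remove misfolded proteins by ER-associated degradation (ERAD). A listed gene was kept when its mean over the 9 libraries was at least 1 FPKM (a measure of fragments that is scaled to the length of the transcript and the size of the library), and 37 of the 38 met this rule, out of 24318 genes in the deposited tables and 10534 with a mean of at least 1 FPKM. The gene that did not meet it was Derl3, a derlin found mainly in secretory tissue, with a mean of 0.0315 FPKM. The study exposed cultured mouse cells to brain-derived extracellular vesicles and measured polyA-selected RNA, with 3 libraries in each of 3 groups: cells given SE-BDEV vesicles, cells given CON-BDEV vesicles and cells given Vehicle. In the library names the SE-BDEV libraries carry the word Pilo and the CON-BDEV libraries the word Saline. No genotype, dose, exposure time or donor animal is given in the labels used here, and the labels do not say whether the 3 libraries of a group came from separate cultures, so the p-values rest on library-to-library variation that could be purely technical.

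The labels disagree on the cells: N2a, a neuroblastoma line of the mouse, is the cell line given for each library, but BV2, a microglial line, is named in the study's design. All 10 microglia and macrophage markers examined had a mean of at least 1 FPKM, with summed levels of 2257 to 2426 FPKM in SE-BDEV, 2231 to 2337 FPKM in CON-BDEV and 2247 to 2345 FPKM in Vehicle libraries. None of 10 neuroblastoma and neuron markers reached 1 FPKM, and Th, Dbh, Mycn, Chga and Stmn2 among them were listed at 0 throughout. Of the markers of other brain cells, 0 of 5 for astrocytes, 1 of 5 for oligodendrocytes (Mbp, 1.41 FPKM) and 0 of 5 for endothelium and blood reached 1 FPKM. Estimated depth was 29.1 to 33.6 M fragments per library, so that 1 FPKM rests on 58.1 to 67.2 fragments where a gene's exons total 2 kb.

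Proteins that enter the secretory pathway are threaded into the ER by the SEC61 channel, glycosylated, folded by chaperones and joined by disulfide bonds. The lectins calnexin and calreticulin hold glycoproteins until they are folded, and proteins that fail are recognised, drawn back through the membrane and ubiquitinated by the HRD1 complex for the proteasome. When unfolded protein builds up, the sensors IRE1, PERK and ATF6 start the unfolded protein response (UPR), in which XBP1 and cleaved ATF6 bind promoters of chaperone and ERAD genes and ATF4 acts downstream of PERK. In microglia this machinery serves the many membrane receptors and secreted proteins that the cells make.

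Several of these genes carry the ER stress response element (ERSE) to which ATF6 is known to bind together with NF-Y, and promoters are shown because the genes with higher RNA below include its bearers as well as genes without it. The letters searched were CCAAT and CCACG with 9 bases of any kind between them for ERSE, and ATTGG and CCACG with 1 base of any kind between them for the shorter ERSE-II, on both strands, in RefSeq windows of the GRCm38.p6 build that run from 250 bases before to 50 bases after each start site. Windows were found for 31 of the 37 genes. ERSE was present in 9 of the 31 (29.0%) and in 39 of all 32851 windows (0.119%), and ERSE-II in 2 of the 31 (6.45%) and in 12 of all windows (0.0365%). The windows with ERSE were those of Hspa5, Hsp90b1, Dnajc3, Creld2, Calr, Canx, Pdia6, Ero1lb and Syvn1, and those with ERSE-II were those of Dnajb11 and Herpud1. A match of this kind is a description of letters and says nothing of whether a factor was bound. The genes were listed for their known part in the ER, so a share above that of all windows tests nothing. Members were counted by gene, with a match in any of their windows, and the background by window. The 250 bases before the start sites of 4 genes follow, 5′ to 3′ on the strand of the gene, with the ERSE or ERSE-II letters on either strand in capitals. Herpud1 (chr8:94386179-94386428, plus strand) holds ERSE-II 52 to 42 bases before its start. Calr (chr8:84846932-84847181, minus strand) holds an ERSE on the opposite strand 162 to 144 bases before. Hsp90b1 (chr10:86705445-86705694, minus strand) holds an ERSE on its own strand 212 to 194 bases before and 1 on the opposite strand 107 to 89 bases before. Hspa5 (chr2:34771840-34772089, plus strand) holds an ERSE 65 to 47 bases before.
Herpud1: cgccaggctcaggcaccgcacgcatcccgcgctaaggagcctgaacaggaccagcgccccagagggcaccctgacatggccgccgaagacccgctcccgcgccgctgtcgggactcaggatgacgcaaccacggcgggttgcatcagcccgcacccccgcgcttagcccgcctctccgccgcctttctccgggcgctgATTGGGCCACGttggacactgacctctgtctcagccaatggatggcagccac
Calr: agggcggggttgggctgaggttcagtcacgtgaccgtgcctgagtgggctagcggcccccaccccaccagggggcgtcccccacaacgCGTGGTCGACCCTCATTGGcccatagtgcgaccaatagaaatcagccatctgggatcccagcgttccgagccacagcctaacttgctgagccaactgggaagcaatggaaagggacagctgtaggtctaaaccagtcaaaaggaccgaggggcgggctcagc
Hsp90b1: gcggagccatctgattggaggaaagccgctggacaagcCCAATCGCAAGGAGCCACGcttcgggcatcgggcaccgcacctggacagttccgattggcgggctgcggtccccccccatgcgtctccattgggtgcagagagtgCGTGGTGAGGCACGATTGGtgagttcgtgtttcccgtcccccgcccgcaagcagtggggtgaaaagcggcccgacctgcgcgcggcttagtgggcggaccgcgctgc
Hspa5: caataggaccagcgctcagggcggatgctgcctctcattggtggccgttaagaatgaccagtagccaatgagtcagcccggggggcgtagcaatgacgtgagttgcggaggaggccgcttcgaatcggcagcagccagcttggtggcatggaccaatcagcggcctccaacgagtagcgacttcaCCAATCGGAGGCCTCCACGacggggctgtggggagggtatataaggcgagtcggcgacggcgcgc

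As levels in FPKM, which is scaled to transcript length and so can be compared between genes, the 37 genes spanned 4.95 FPKM for Ero1lb, an oxidase best known from secretory cells, to 817.1 FPKM for Calr, with a median of 46.1 FPKM over the means of 9 libraries. There were 8 genes at or above 100 FPKM, 24 between 10 and 100 FPKM and 5 under 10 FPKM. Summed over the 37 genes, the level was 3835, 4011 and 4163 FPKM in SE-BDEV replicates 1 to 3, 4436, 3749 and 4083 FPKM in CON-BDEV replicates 1 to 3, and 3437, 3441 and 3707 FPKM in Vehicle replicates 1 to 3. Each of the 6 vesicle libraries lay above each Vehicle library, and CON-BDEV replicate 2 lay closest to them. In a bulk culture a change in a transcript's share cannot be assigned, since fewer cells of a type and less RNA per cell cannot be told apart. The plot of all 37 genes by library shows the same levels gene by gene.

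**Figure D1:**
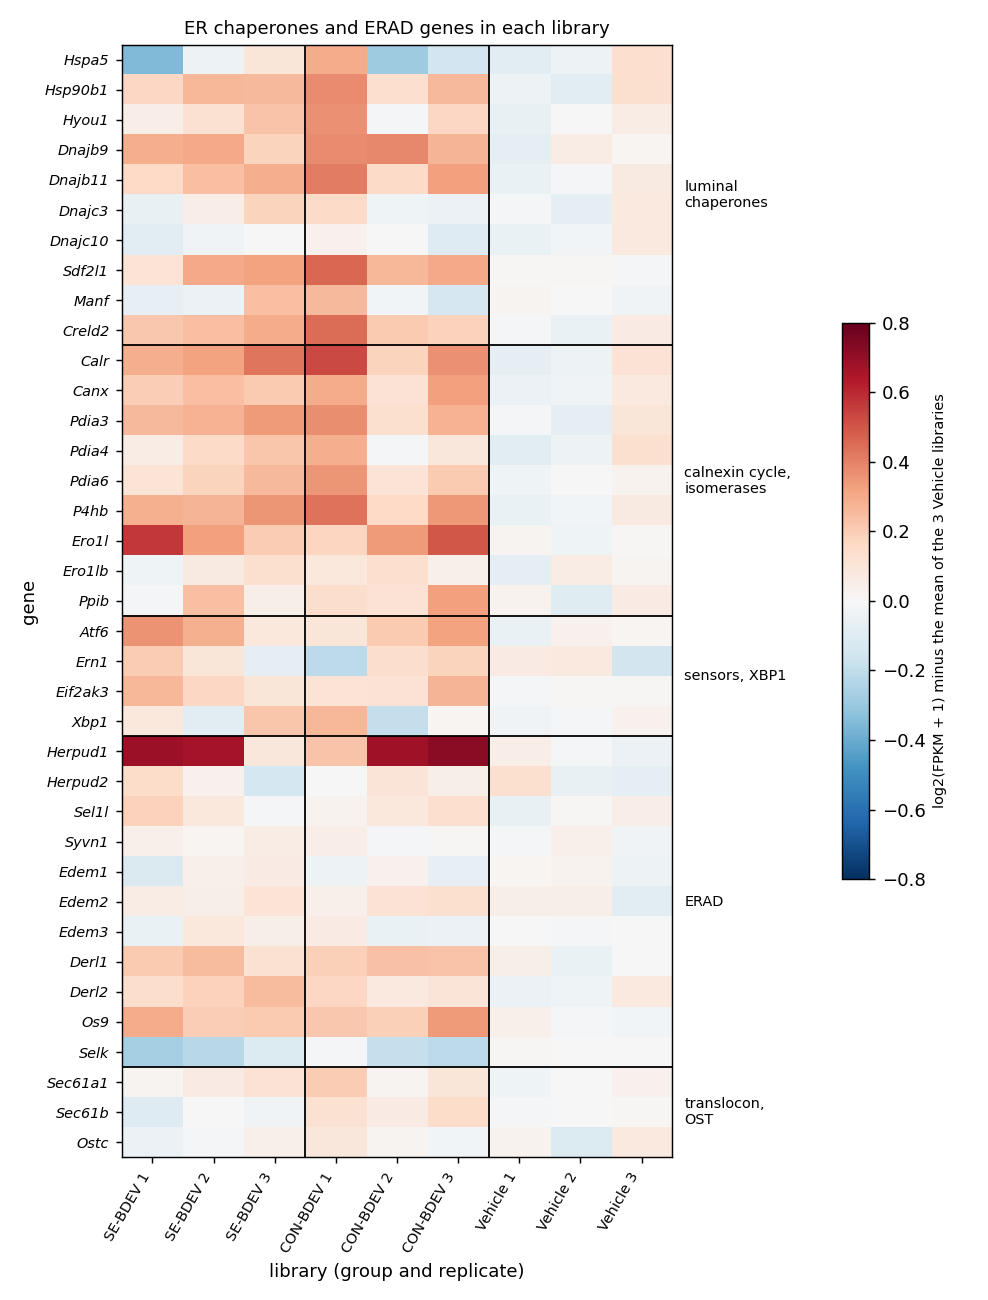
Each row is 1 of the 37 genes, grouped by role, and each column 1 library; colour gives log2(FPKM + 1) minus the mean of the 3 Vehicle libraries. Calr, Pdia3 and P4hb are above the Vehicle mean in all 6 vesicle libraries, and Selk is below it in all 6. Herpud1 is least raised in SE-BDEV replicate 3 and CON-BDEV replicate 1.

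SE-BDEV against Vehicle asked what vesicles of the SE group did to these transcripts. With SE-BDEV, 15 of the 37 genes rose (40.5%) at an adjusted p under 0.05 by limma, beside 6.76% of all 10535 genes tested, and 1 fell, Selk, beside 5.14% of all genes. The 15 were Hsp90b1, Dnajb9, Dnajb11, Sdf2l1, Creld2, Calr, Canx, Pdia3, Pdia6, P4hb, Ero1l, Atf6, Herpud1, Derl1 and Os9, that is 5 of 10 luminal chaperones, 6 of 9 genes of the calnexin cycle and its isomerases, 1 of 4 sensors, 3 of 11 ERAD genes and 0 of 3 translocon genes. The changes were small, with a median log2 fold change of 0.14 over the 37 genes beside -0.00 over all genes, and a range of -0.20 to 0.48. An unadjusted p under 0.05 was found for 20 of the 37, beside 27.4% of all genes. All 3 SE-BDEV libraries lay above all 3 Vehicle libraries for 17 of the 37 genes (45.9%), beside 16.5% of all genes, and below them for 1, beside 16.3%. The count of 15 became 11, 8 or 14 without SE-BDEV replicate 1, 2 or 3, and 5, 6 or 8 without Vehicle replicate 1, 2 or 3. It was 6 when lowly expressed genes were kept and 10 in the fit of all 9 libraries. It was 6 by the q in the authors' deposited table. Over all genes 712 rose. That count was 508, 534 or 778 without SE-BDEV replicate 1, 2 or 3, and 314, 362 or 410 without Vehicle replicate 1, 2 or 3. It was 435 when lowly expressed genes were kept and 491 in the fit of all 9 libraries. By the authors' q it was 358. Creld2, Calr, Pdia3, P4hb and Os9 passed the threshold in all 6 refits that left out 1 library, Dnajb9, Pdia6, Atf6, Herpud1, Derl1 and Selk in 1 of the 6, and each of the 16 genes called kept its direction in every refit.

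The same question was asked of the CON group's vesicles. With CON-BDEV, 9 of the 37 genes rose (24.3%), beside 3.81% of all 10535 genes tested, and 0 fell, beside 1.86%. In either direction the share of all genes was 5.67%, beside 11.9% with SE-BDEV. They were Dnajb9, Dnajb11, Sdf2l1, Calr, P4hb, Ero1l, Herpud1, Derl1 and Os9, all 9 of which are also among the 15 that rose with SE-BDEV; the comparisons share the same 3 Vehicle libraries. The median log2 fold change over the 37 genes was 0.12 beside 0.01 over all genes, and 19 of the 37 had an unadjusted p under 0.05 by limma beside 23.5% of all genes. All 3 CON-BDEV libraries lay above all 3 Vehicle libraries for 18 of the 37 genes (48.6%), beside 16.6% of all genes, and below them for 1 (Selk), beside 12.7%. The count of 9 depended on the libraries and the fit: it was 11, 13 or 2 without CON-BDEV replicate 1, 2 or 3. It was 0 without Vehicle replicate 1, 2 or 3, and 12 in the fit of all 9 libraries. It was 2 with the first digit of the library code as a block, and 0 when lowly expressed genes were kept. Over all genes 401 rose. That count was 687, 588 or 97 without CON-BDEV replicate 1, 2 or 3, and 81, 66 or 92 without Vehicle replicate 1, 2 or 3. It was 516 in the fit of all 9 libraries, 192 with the library-code block and 78 when lowly expressed genes were kept. Each of the 9 kept its direction in every refit.

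**Figure D2:**
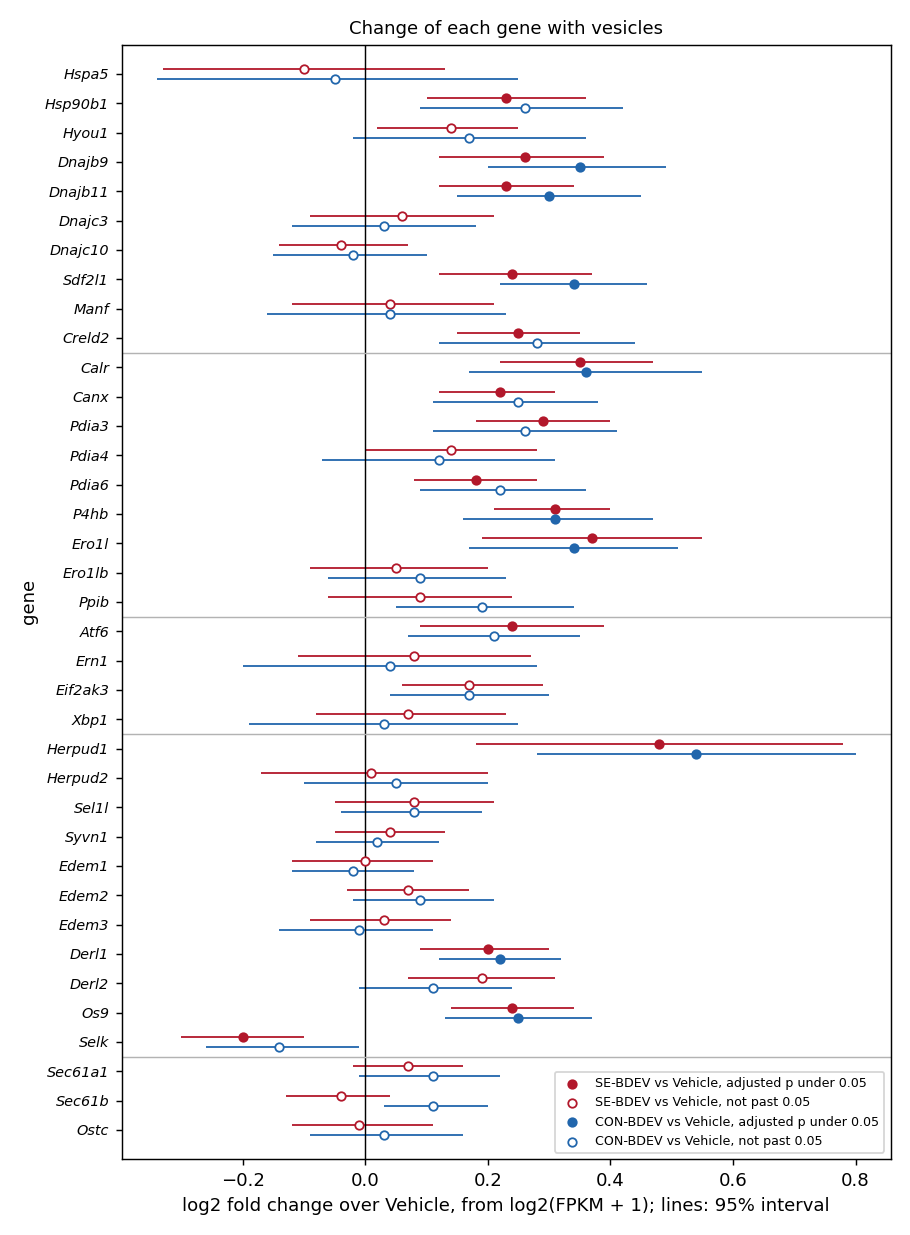
Points give the log2 fold change over Vehicle from log2(FPKM + 1) for each of the 37 genes with SE-BDEV (red) and CON-BDEV (blue), lines the 95% interval, and filled points an adjusted p under 0.05 by limma. Filled red points stand at 15 genes to the right of 0 and at Selk to the left, and filled blue points at 9 genes to the right.

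Among the 10 luminal chaperones and co-chaperones, 5 rose with SE-BDEV (Hsp90b1, Dnajb9, Dnajb11, Sdf2l1 and Creld2) and 3 with CON-BDEV (Dnajb9, Dnajb11 and Sdf2l1). Over all genes tested, 6.76% rose with SE-BDEV and 3.81% with CON-BDEV. Hspa5, which encodes BiP, did not pass the test. Sdf2l1, which works with BiP and its J-domain partners to keep unfolded proteins soluble, had 63.7, 73.1 and 74.0 FPKM in SE-BDEV, 81.6, 71.2 and 73.1 FPKM in CON-BDEV and 59.5, 59.4 and 58.4 FPKM in Vehicle libraries. All 6 vesicle libraries were above all 3 Vehicle libraries, and SE-BDEV replicate 1 lay nearest to them. Its log2 fold change was 0.24 ± 0.06 with SE-BDEV and 0.34 ± 0.05 with CON-BDEV (estimate ± SE, with adjusted p of 0.0228 and 0.0117 by limma). Dnajb9, a J-domain co-chaperone of BiP that also restrains IRE1, had 7.01, 7.07 and 6.40 FPKM in SE-BDEV, 7.52, 7.55 and 6.89 FPKM in CON-BDEV and 5.23, 5.82 and 5.61 FPKM in Vehicle libraries. Again no vesicle library overlapped Vehicle, and the log2 fold changes were 0.26 with SE-BDEV and 0.35 with CON-BDEV (adjusted p of 0.0253 and 0.0185). Dnajb11, another J-domain co-chaperone, which binds unfolded clients and carries them to BiP, had 61.3, 64.8 and 67.2 FPKM in SE-BDEV, 73.0, 60.9 and 69.1 FPKM in CON-BDEV and 52.7, 54.1 and 57.6 FPKM in Vehicle libraries. The vesicle libraries were all higher than Vehicle, by 0.23 on the log2 scale with SE-BDEV and 0.30 with CON-BDEV (adjusted p of 0.0164 and 0.0383). The listed Dnajb11 locus overlaps those of Ahsg and Gm30505.

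Hsp90b1, the HSP90 of the ER that folds Toll-like receptors and integrins, had 391.2, 419.8 and 418.8 FPKM in SE-BDEV, 453.9, 383.1 and 417.5 FPKM in CON-BDEV and 339.3, 329.3 and 381.0 FPKM in Vehicle libraries. It was above Vehicle in all 6 vesicle libraries, narrowly in CON-BDEV replicate 2. The log2 fold change was 0.23 with SE-BDEV (adjusted p of 0.03) and 0.26 with CON-BDEV (adjusted p of 0.0726), and only the first passed. Creld2, an ER protein of the disulfide isomerase kind that is induced by stress, had 35.7, 36.4 and 37.9 FPKM in SE-BDEV, 42.1, 35.5 and 34.9 FPKM in CON-BDEV and 30.3, 29.5 and 32.1 FPKM in Vehicle libraries. The groups given vesicles did not overlap Vehicle, with log2 fold changes of 0.25 with SE-BDEV (adjusted p of 0.00853) and 0.28 with CON-BDEV (adjusted p of 0.0572).

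The other luminal genes did not pass in either comparison, and library values of Hspa5 among them are given although it was chosen after its values were seen. Hspa5, the abundant HSP70 that binds unfolded proteins and holds the UPR sensors inactive, had 263.7, 327.3 and 361.3 FPKM in SE-BDEV, 414.4, 277.4 and 302.9 FPKM in CON-BDEV and 316.5, 328.2 and 369.6 FPKM in Vehicle libraries. All 3 groups overlapped: the highest value was in CON-BDEV replicate 1 and the lowest in SE-BDEV replicate 1. Its log2 fold change was -0.10 with SE-BDEV (95% interval -0.33 to 0.13) and -0.05 with CON-BDEV (95% interval -0.34 to 0.25), and the second turned to 0.01 with the library-code block. Both intervals include 0. With CON-BDEV the Hspa5 interval overlaps those of Hsp90b1 (0.09 to 0.42) and Creld2 (0.12 to 0.44). With SE-BDEV it overlaps that of Hsp90b1 (0.10 to 0.36) and not that of Creld2 (0.15 to 0.35). No difference between Hspa5 and the 5 genes above was tested. Hyou1, an exchange factor for BiP, had log2 fold changes of 0.14 with SE-BDEV and 0.17 with CON-BDEV (adjusted p of 0.125 and 0.257). Dnajc3, which inhibits PERK, Dnajc10, a reductase that opens disulfides before degradation, and Manf, a secreted protein induced by ER stress, had log2 fold changes between -0.04 and 0.06 in the comparisons with Vehicle.

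The calnexin cycle and disulfide group held 5 of the 8 genes at or above 100 FPKM. Of its 9 genes, 6 rose with SE-BDEV and 3 with CON-BDEV, beside 6.76% and 3.81% of all genes. No difference between role groups was tested. Calr encodes calreticulin, the soluble lectin chaperone that also stores calcium, and lies at chr8:87365987-87370830 in mm9. It had 840.8, 859.9 and 927.5 FPKM in SE-BDEV, 993.0, 778.5 and 887.4 FPKM in CON-BDEV and 653.5, 668.4 and 744.5 FPKM in Vehicle libraries. No vesicle library overlapped Vehicle, and CON-BDEV replicate 1 was the highest and replicate 2 the lowest of the 6. The log2 fold change was 0.35 ± 0.06 with SE-BDEV (adjusted p of 0.00567) and 0.36 ± 0.08 with CON-BDEV (adjusted p of 0.0441), about 1.27-fold and 1.28-fold. Its membrane-bound counterpart Canx, calnexin, had 153.3, 158.1 and 154.9 FPKM in SE-BDEV, 164.1, 144.6 and 168.2 FPKM in CON-BDEV and 129.3, 131.0 and 141.0 FPKM in Vehicle libraries. Canx was likewise above Vehicle in all 6 vesicle libraries, and rose by 0.22 with SE-BDEV (adjusted p of 0.0109), beside a log2 fold change of 0.25 with CON-BDEV that did not pass (adjusted p of 0.0539). Pdia3, the disulfide isomerase that both lectins recruit, had 387.1, 390.9 and 408.2 FPKM in SE-BDEV, 418.3, 353.1 and 390.8 FPKM in CON-BDEV and 318.9, 305.6 and 345.0 FPKM in Vehicle libraries. All vesicle libraries were higher, CON-BDEV replicate 2 by the least, with log2 fold changes of 0.29 with SE-BDEV (adjusted p of 0.00602) and 0.26 with CON-BDEV (adjusted p of 0.0576).

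P4hb encodes protein disulfide isomerase itself, which forms and rearranges disulfide bonds, and lies at chr11:120421618-120434250 in mm9. It had 213.4, 211.3 and 223.8 FPKM in SE-BDEV, 236.8, 195.4 and 222.3 FPKM in CON-BDEV and 168.6, 172.4 and 183.4 FPKM in Vehicle libraries. The groups did not overlap, and P4hb had the lowest adjusted p of the 37 genes with SE-BDEV (0.00252, log2 fold change 0.31 ± 0.04), beside 0.0336 with CON-BDEV (log2 fold change 0.31 ± 0.07). Ero1l, the oxidase that recharges protein disulfide isomerase, had 39.8, 33.5 and 30.7 FPKM in SE-BDEV, 30.0, 33.8 and 37.8 FPKM in CON-BDEV and 27.0, 25.9 and 26.7 FPKM in Vehicle libraries. All 6 vesicle libraries were higher than Vehicle, and SE-BDEV replicate 3 and CON-BDEV replicate 1, the highest of their groups for Calr and P4hb, were the lowest of their groups here. The log2 fold change was 0.37 ± 0.08 with SE-BDEV (adjusted p of 0.0186) and 0.34 ± 0.07 with CON-BDEV (adjusted p of 0.0360). Pdia6, an isomerase that also acts on the sensors, had 270.0, 282.7 and 299.8 FPKM in SE-BDEV, 319.7, 270.0 and 289.7 FPKM in CON-BDEV and 244.7, 250.5 and 255.4 FPKM in Vehicle libraries. Its libraries did not overlap Vehicle, and the log2 fold change was 0.18 with SE-BDEV (adjusted p of 0.0271) and 0.22 with CON-BDEV (adjusted p of 0.0602). The Pdia6 locus overlaps that of Atp6v1c2. The remaining 3 genes, the isomerase Pdia4, the oxidase Ero1lb and the prolyl isomerase Ppib, had log2 fold changes of 0.05 to 0.14 with SE-BDEV and 0.09 to 0.19 with CON-BDEV, and none passed.

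**Figure D3:**
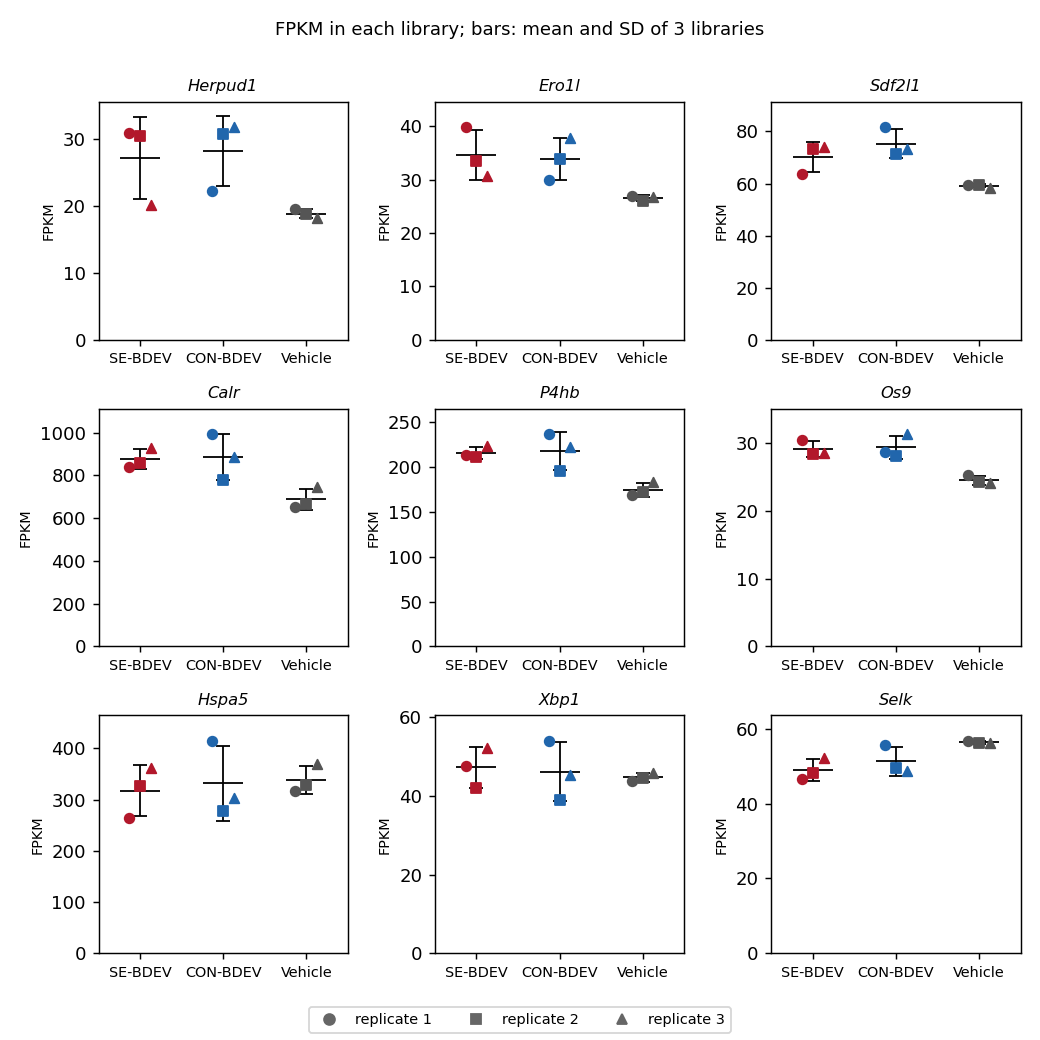
FPKM in each library for 9 genes, with marker shape for the replicate number and bars for mean and SD of 3 libraries. Herpud1, Ero1l, Sdf2l1, Calr, P4hb and Os9 lie above all Vehicle libraries in all 6 vesicle libraries. Hspa5 and Xbp1 overlap Vehicle, and Selk lies below all Vehicle libraries in all 6 vesicle libraries.

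Of the UPR sensors and XBP1, 1 of 4 rose with SE-BDEV and 0 of 4 with CON-BDEV, beside 6.76% and 3.81% of all genes. Atf6, the sensor that is cleaved in the Golgi to release a transcription factor, had 37.6, 35.6 and 30.8 FPKM in SE-BDEV, 31.2, 33.8 and 36.6 FPKM in CON-BDEV and 28, 29.8 and 29.4 FPKM in Vehicle libraries. The vesicle libraries were all higher, although SE-BDEV replicate 3 and CON-BDEV replicate 1 lay close to the highest Vehicle library. The log2 fold change was 0.24 with SE-BDEV (adjusted p of 0.0464) and 0.21 with CON-BDEV (adjusted p of 0.0755). Xbp1, whose spliced RNA encodes the factor made after IRE1 acts, is named here although it did not pass, as splicing cannot be read from gene-level FPKM. It had 47.5, 42.0 and 52.3 FPKM in SE-BDEV, 54.0, 39.1 and 45.3 FPKM in CON-BDEV and 43.8, 44.5 and 45.9 FPKM in Vehicle libraries. Both vesicle groups had libraries above and below all of Vehicle, with log2 fold changes of 0.07 with SE-BDEV and 0.03 with CON-BDEV (adjusted p of 0.529 and 0.882), the second of which was -0.00 after quantile normalization. Eif2ak3, which encodes PERK, had log2 fold changes of 0.17 with SE-BDEV and 0.17 with CON-BDEV (adjusted p of 0.0630 and 0.121), and Ern1, which encodes IRE1, 0.08 and 0.04 (adjusted p of 0.583 and 0.865).

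In the ERAD group 3 of 11 genes rose with each preparation, beside 6.76% of all genes with SE-BDEV and 3.81% with CON-BDEV. With SE-BDEV 1 of the 11 fell, beside 5.14% of all genes, and with CON-BDEV 0 fell, beside 1.86%. Herpud1, a ubiquitin-like membrane protein that assembles the HRD1 complex, lies at chr8:96910400-96919258 in mm9 and had the largest log2 fold change of the 37 genes in both comparisons with Vehicle. It had 30.8, 30.4 and 20.1 FPKM in SE-BDEV, 22.2, 30.7 and 31.7 FPKM in CON-BDEV and 19.5, 18.7 and 18.2 FPKM in Vehicle libraries. In each vesicle group 2 libraries lay between 30.4 and 31.7 FPKM and 1 lay just above Vehicle, SE-BDEV replicate 3 and CON-BDEV replicate 1. The log2 fold change was 0.48 ± 0.13 with SE-BDEV (adjusted p of 0.0479) and 0.54 ± 0.11 with CON-BDEV (adjusted p of 0.0315). Its coefficient of variation was 22.5% in SE-BDEV and 18.6% in CON-BDEV, the largest of the 37 genes in SE-BDEV and the next after Hspa5 in CON-BDEV. Herpud1 passed in 1 of 6 such refits in each comparison, the one without SE-BDEV replicate 3 and the one without CON-BDEV replicate 1. Its log2 fold change in them was 0.38 to 0.67 with SE-BDEV and 0.45 to 0.70 with CON-BDEV. The Herpud1 promoter printed above holds ERSE-II, and also TGATGNAA, the core of the element bound by ATF4 with a C/EBP partner, on the opposite strand 112 to 105 bases before the start, which is found in 1 of the 31 windows and in 3.97% of all windows.

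Os9, a lectin that hands trimmed glycoproteins to the HRD1 complex, had 30.4, 28.3 and 28.5 FPKM in SE-BDEV, 28.7, 28.1 and 31.3 FPKM in CON-BDEV and 25.3, 24.2 and 24.1 FPKM in Vehicle libraries. No library overlapped Vehicle, and the log2 fold change was 0.24 with SE-BDEV (adjusted p of 0.00965) and 0.25 with CON-BDEV (adjusted p of 0.0297). Derl1, a derlin that helps to draw proteins back through the membrane, had 46.2, 47.6 and 43.4 FPKM in SE-BDEV, 45.5, 47 and 46.7 FPKM in CON-BDEV and 41.1, 38.3 and 39.9 FPKM in Vehicle libraries. It too was above Vehicle in all 6 vesicle libraries, by 0.20 with SE-BDEV (adjusted p of 0.0262) and 0.22 with CON-BDEV (adjusted p of 0.0253). Selk, a selenoprotein of the ER membrane that binds derlins, went the other way, with 46.7, 48.2 and 52.2 FPKM in SE-BDEV, 55.7, 49.5 and 48.7 FPKM in CON-BDEV and 56.8, 56.2 and 56.2 FPKM in Vehicle libraries. All 6 vesicle libraries lay below all 3 Vehicle libraries, CON-BDEV replicate 1 by the least. Selk fell by 0.20 with SE-BDEV (adjusted p of 0.0228), beside a log2 fold change of -0.14 with CON-BDEV (adjusted p of 0.172). When each library was left out in turn, the fall passed in 1 of 6 refits, without SE-BDEV replicate 3.

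The HRD1 ligase and the mannosidases showed no change that passed. Derl2, the close relative of Derl1, had a log2 fold change of 0.19 with SE-BDEV (adjusted p of 0.0521) and 0.11 with CON-BDEV (adjusted p of 0.258). The ligase Syvn1 (HRD1), its partner Sel1l, Herpud2 and the glycan-trimming genes Edem1, Edem2 and Edem3 had log2 fold changes of -0.00 to 0.08 with SE-BDEV and -0.02 to 0.09 with CON-BDEV. For Syvn1 the 95% intervals were -0.05 to 0.13 with SE-BDEV and -0.08 to 0.12 with CON-BDEV, and both include 0. No difference between these genes and the ERAD genes that rose was tested.

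None of the 3 translocon genes passed against Vehicle, beside 11.9% of all genes with SE-BDEV and 5.67% with CON-BDEV. Sec61b, the small beta subunit of the SEC61 channel, had 206.6, 221.6 and 218.1 FPKM in SE-BDEV, 241.8, 232.6 and 245.8 FPKM in CON-BDEV and 220.7, 221.8 and 223.8 FPKM in Vehicle libraries. The CON-BDEV libraries were all above Vehicle, 1 SE-BDEV library lay within the Vehicle range and 2 lay below it. The log2 fold change was -0.04 with SE-BDEV (adjusted p of 0.474) and 0.11 with CON-BDEV (adjusted p of 0.114). Ostc, a subunit of the enzyme that transfers glycans, had 91.3, 94.0 and 97.2 FPKM in SE-BDEV, 100.7, 95.9 and 93.1 FPKM in CON-BDEV and 96.3, 87.5 and 99.9 FPKM in Vehicle libraries, with overlap of the groups. Its log2 fold change was -0.01 with SE-BDEV and 0.03 with CON-BDEV (adjusted p of 0.959 and 0.776 by limma). For Sec61a1, also of the SEC61 channel, it was 0.07 with SE-BDEV and 0.11 with CON-BDEV (adjusted p of 0.304 and 0.243).

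SE-BDEV against CON-BDEV asked whether the preparations differed from each other. By limma 0 of the 37 genes differed at an adjusted p under 0.05, beside 0% of all 10532 genes tested, and 1 of the 37 had an unadjusted p under 0.05, beside 4.83% of all genes. That gene was Sec61b, with a log2 fold change of -0.16 ± 0.04 (unadjusted p of 0.00185, adjusted p of 0.972), and all 3 SE-BDEV libraries lay below all 3 CON-BDEV libraries, as for 5.19% of all genes; 0 of the 37 had all SE-BDEV libraries above, beside 2.74%. The estimates for the 37 genes lay between -0.16 and 0.08. The 95% intervals reached no lower than -0.41, for Herpud1, and no higher than 0.28, for Herpud1 and Ern1. For the 6 genes that passed with SE-BDEV and not with CON-BDEV, the difference between preparations was -0.03 for Hsp90b1 (95% interval -0.18 to 0.12), -0.03 for Creld2 (-0.17 to 0.12), -0.03 for Canx (-0.15 to 0.09), 0.03 for Pdia3 (-0.10 to 0.17), -0.04 for Pdia6 (-0.17 to 0.09) and 0.03 for Atf6 (-0.13 to 0.19). The spread of the CON-BDEV libraries was larger than that of the SE-BDEV libraries for the typical gene, with a median coefficient of variation over the 37 genes of 5.47% in SE-BDEV, 7.88% in CON-BDEV and 4.39% in Vehicle libraries.

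The order of the libraries within a group differed between genes. SE-BDEV replicate 3 was the highest of its group for 22 of the 37 genes, CON-BDEV replicate 1 for 21 and Vehicle replicate 3 for 22, and SE-BDEV replicate 1 was the lowest of its group for 23, CON-BDEV replicate 2 for 19 and Vehicle replicate 1 for 18. CON-BDEV replicate 1 and SE-BDEV replicate 3, high for Calr and Hspa5, were the lowest of their groups for Herpud1, Ero1l, Atf6 and Ern1. The part of these libraries in the results was not tested beyond the fits that leave each out. By level, 6 of the 8 genes at or above 100 FPKM rose with SE-BDEV, beside 9 of the 29 lower ones and 9.73% of all genes at or above 100 FPKM, and with CON-BDEV these counts were 2 of 8, 7 of 29 and 8.62%.

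In the authors' deposited table of Cuffdiff results, 6 of the 37 genes were higher with SE-BDEV at a q under 0.05 (Calr, Pdia3, P4hb, Ero1l, Atf6 and Herpud1), beside 3.40% of all genes tested here, and 8 with CON-BDEV (Dnajb9, Dnajb11, Sdf2l1, Creld2, Calr, P4hb, Ero1l and Herpud1), beside 2.81%. At that limit 0 of the 37 were lower in the authors' deposited table, beside 1.94% of all genes with SE-BDEV and 1.55% with CON-BDEV. Calr, P4hb, Ero1l and Herpud1 are the genes past the limit in both of its comparisons. For Herpud1 the authors' deposited table gives log2 fold changes of 0.53 with SE-BDEV and 0.58 with CON-BDEV. The estimates printed elsewhere are on the log2(FPKM + 1) scale, which understates the change of genes of low level.

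Promoters with ERSE or ERSE-II were found in 7 of the 13 genes with a window that rose in at least 1 comparison with Vehicle (Hsp90b1, Dnajb11, Creld2, Calr, Canx, Pdia6 and Herpud1) and in 4 of the 18 that did not (Hspa5, Dnajc3, Ero1lb and Syvn1), beside 0.155% of all windows. These shares were not tested against each other or against that of all windows. The windows of Sdf2l1, Dnajb9, P4hb, Pdia3, Ero1l and Os9, which rose, hold neither set of letters. TGACGTGG, the core of the element bound by XBP1 and ATF6, was in 0 of the 31 windows and in 0.676% of all windows, which says only that these letters are not in these windows.

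The other ER genes examined came from 4 lists of components outside the 37. Over all genes tested, 6.76% rose and 5.14% fell with SE-BDEV, and 3.81% rose and 1.86% fell with CON-BDEV. Of 27 further subunits of the translocon, signal peptidase and oligosaccharyltransferase, 10 rose (37%) and 0 fell with SE-BDEV. With CON-BDEV 2 rose (7.41%) and 0 fell. Sec11c, a catalytic subunit of signal peptidase, had 123.8, 131.4 and 126.0 FPKM in SE-BDEV, 128.0, 129.7 and 136.4 FPKM in CON-BDEV and 107.0, 98.2 and 113.5 FPKM in Vehicle libraries, with no overlap (log2 fold change 0.26 with SE-BDEV and 0.31 with CON-BDEV, adjusted p of 0.0150 and 0.0190). Tram1, which helps chains into the channel, and Ssr2, a subunit of the translocon-associated complex, rose by 0.23 and 0.18 with SE-BDEV (adjusted p of 0.0110 and 0.0225), and Ssr4 of the same complex rose by 0.16 with CON-BDEV (adjusted p of 0.0490). The other 7 that rose with SE-BDEV, named after their values were seen, were the signal peptidase subunits Spcs1 and Spcs2, the receptor subunit Srprb, the glycan transferase subunits Rpn1, Rpn2 and Stt3a, and the translocon-associated Serp1, by 0.13 (Stt3a) to 0.17 (Spcs1). Of 29 further folding and quality control genes tested out of 30, 4 rose (13.8%) and 1 fell (3.45%) with SE-BDEV. With CON-BDEV 3 rose (10.3%) and 0 fell. Erp44, which retains oxidases in the ER, and the prolyl isomerase Fkbp2 rose with SE-BDEV by 0.25 and 0.23 (adjusted p of 0.00700 and 0.0191), as did Lman2, a cargo lectin, by 0.19, while Cnpy2, a relative of Cnpy3, fell by 0.13 (both named after their values were seen). Cnpy3, a co-chaperone of the ER HSP90 for Toll-like receptors, rose by 0.20 with SE-BDEV and 0.22 with CON-BDEV (adjusted p of 0.00827 and 0.0295), and Fkbp11, another prolyl isomerase, and Prkcsh, the beta subunit of glucosidase II, rose with CON-BDEV by 0.30 and 0.23 (adjusted p of 0.00864 and 0.0287).

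Of 30 further ERAD components, 3 rose (10%) and 0 fell with each preparation, namely Vimp, Man1b1 and Ufd1l in both. Of all genes, 6.76% rose with SE-BDEV and 3.81% with CON-BDEV. Vimp, a selenoprotein that ties the ATPase VCP to derlins, had log2 fold changes of 0.20 with SE-BDEV and 0.23 with CON-BDEV (adjusted p of 0.0367 and 0.0416). Man1b1, a mannosidase that marks glycoproteins for degradation, had 0.17 and 0.22 (adjusted p of 0.0199 and 0.0424), and Ufd1l, a cofactor of VCP, 0.17 and 0.22 (adjusted p of 0.0391 and 0.0250). Of 19 genes tested out of 22 listed for UPR signalling and targets of PERK and ATF4, 3 rose (15.8%) and 1 fell with SE-BDEV. With CON-BDEV 1 rose (5.26%) and 1 fell. The share of each list that rose is shown in the bar chart of lists, where the 37 genes have the tallest bar in both comparisons. With SE-BDEV the list of translocon, signal peptidase and oligosaccharyltransferase subunits came close, at 37% beside 40.5%. The 37 genes and all lists were chosen with earlier results of these data known, and no difference between lists was tested.

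**Figure D4:**
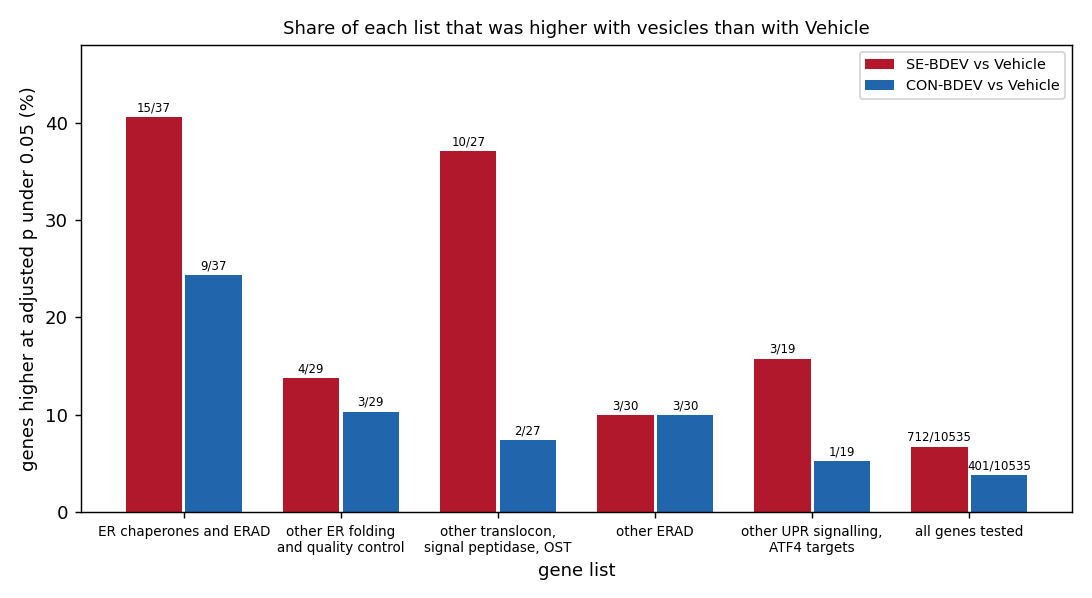
Bars give the percentage of genes that were higher than Vehicle at an adjusted p under 0.05 by limma with SE-BDEV (red) and CON-BDEV (blue), for the 37 genes, 4 lists of other ER genes and all genes tested, with counts above the bars. The 37 genes stand at 40.5% with SE-BDEV and 24.3% with CON-BDEV, beside 6.76% and 3.81% of all genes.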

How the data were processed

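The libraries were polyA-selected and made with a directional kit, per the labels' protocols. TopHat2, Cuffdiff and mouse build mm9 are named in the submitters' processing notes; versions and annotation are not given in the sources used here. The authors deposited FPKM per gene and library, as 1 table of SE-BDEV with Vehicle and 1 of CON-BDEV with Vehicle. Their Cuffdiff tables, per the file headers, give a log2 fold change of vesicles over Vehicle, a test score, and a p-value and q-value per gene, all computed by the authors. Read counts were not used, and depth was estimated from the smallest steps between low values.

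Genes were analysed as log2(FPKM + 1) in R 4.3.3 with limma 3.58.1 (eBayes with trend, 2-sided), after removing genes whose mean in the fitted libraries was under 1 FPKM. Genes whose estimates failed were also removed, Fth1 from every fit and Ftl1 from fits that held CON-BDEV libraries. Vehicle comparisons used only the table that holds the vesicle group. SE-BDEV was compared with CON-BDEV in 1 fit of 9 libraries, after the SE-BDEV table was scaled through the shared Vehicle libraries, which differed between tables by factors of 1.00012 to 1.00078. Benjamini-Hochberg adjustment ran over all genes tested, with a threshold of 0.05. An exact permutation test of 3 against 3 libraries cannot go below p = 0.1, so tests of single genes depend on the spread that limma pools over genes. The fitting steps were also run on simulated data in which each gene varied independently between libraries. That run cannot show false calls from spread that genes of a library share, and no conclusion is drawn from it. Coordinates of genes are mm9 with starts counted from 1; the promoter windows come from RefSeq tables of GRCm38.p6, matched by symbol or synonym.

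The members and all lists were chosen with earlier results of these data known. Genes past the threshold were named with every library's value, other members by role group, and of each further list up to 3 genes past the threshold with the largest changes per comparison. Alternatives were another pseudocount, no filter, quantile and median-ratio scaling, blocks by replicate number and by library code, 1 fit of all libraries, and leaving out each library.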

Additional observations from a re-analysis of the deposited data

How the results depend on the processing

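With no filter on low values, 6 members rose and 0 fell with SE-BDEV (726 genes in all) and 0 rose with CON-BDEV (112 in all), beside 15 and 1 (1253) and 9 and 0 (597) as reported. With 1 fit of all 9 libraries, 10 members rose and 0 fell with SE-BDEV (830 genes) and 12 rose with CON-BDEV; the authors' q gave 6 members higher and 0 lower with SE-BDEV, and 562 genes. Replicate numbers did not pair libraries (mean r -0.04 between libraries of 1 number; 3 of 9 libraries closest to their own number); with replicate number as a block, 15 members rose with SE-BDEV and 8 with CON-BDEV (364 genes). With the library-code block 2 members rose with CON-BDEV (275 genes), and Hspa5 (0.01) and Edem3 (0.01) turned sign. Quantile normalization left 6 members higher with CON-BDEV and 14 with SE-BDEV, beside 9 and 15 as reported. Calr, P4hb and Dnajb11 then did not pass with CON-BDEV. The same normalization left 301 of 550 genes called with CON-BDEV higher (401 of 597 as reported), with Xbp1 at -0.00 and Ostc at -0.02. The cause of these shifts was not tested.

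Leaving out 1 library at a time, SE-BDEV gave 5 to 14 members higher, 0 to 1 lower and 501 to 1311 genes; CON-BDEV gave 0 to 13 higher, 0 to 1 lower and 84 to 1067 genes; SE-BDEV against CON-BDEV gave 0 to 1 genes, the 1 arising without CON-BDEV replicate 1 and without SE-BDEV replicate 2, with 0 members. Log2 fold changes that turned sign in such fits were all of uncalled members. With SE-BDEV their ranges were -0.20 to 0.03 for Hspa5, -0.06 to 0.00 for Dnajc10, -0.05 to 0.10 for Manf, -0.00 to 0.15 for Xbp1, -0.05 to 0.09 for Herpud2, -0.04 to 0.05 for Edem1, -0.00 to 0.07 for Edem3 and -0.06 to 0.04 for Ostc. With CON-BDEV they were -0.22 to 0.07 for Hspa5, -0.03 to 0.07 for Dnajc3, -0.05 to 0.02 for Dnajc10, -0.08 to 0.12 for Manf, -0.04 to 0.16 for Ern1, -0.09 to 0.14 for Xbp1, -0.05 to 0.01 for Edem3 and -0.02 to 0.07 for Ostc. Further ranges that ended at 0.00 after rounding were those of Dnajc3 and Ern1 with SE-BDEV, and of Syvn1 and Edem1 with CON-BDEV.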

Other observations

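Outside the ER lumen, 3 of the 19 genes tested for UPR signalling and targets of PERK and ATF4 are described here because they varied by library as Herpud1 did. Ppp1r15a, the phosphatase subunit that restores translation after PERK acts, had 31.3, 25.4 and 18.0 FPKM in SE-BDEV, 19.7, 29.4 and 30.9 FPKM in CON-BDEV and 17.8, 17 and 16.5 FPKM in Vehicle libraries, and rose with CON-BDEV by 0.59 on the log2 scale (adjusted p of 0.0446 by limma). Nupr1, a small stress-induced chromatin protein, had 93.4, 86.2 and 51.2 FPKM in SE-BDEV, 47.1, 91.9 and 94.5 FPKM in CON-BDEV and 47.1, 44.2 and 43.6 FPKM in Vehicle libraries, and rose with SE-BDEV by 0.72 (adjusted p of 0.0330). Atf4, the transcription factor translated when PERK is active, had 462.7, 411.3 and 333.1 FPKM in SE-BDEV, 334.7, 447.6 and 420.8 FPKM in CON-BDEV and 349.6, 327.7 and 339.8 FPKM in Vehicle libraries. Ppp1r15a did not pass with SE-BDEV, Nupr1 did not pass with CON-BDEV, and Atf4 passed with neither. Between SE-BDEV and CON-BDEV, 0 of the 19 genes passed. In all 3 genes SE-BDEV replicate 3 and CON-BDEV replicate 1 lay nearest to Vehicle, a pattern noticed in these values and not tested.

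Wfs1, a membrane protein of the ER that limits ATF6, had 6.66, 7.67 and 8.31 FPKM in SE-BDEV, 8.02, 6.69 and 6.23 FPKM in CON-BDEV and 9.25, 9.30 and 9.38 FPKM in Vehicle libraries. It was below all Vehicle libraries in all 6 vesicle libraries and fell by 0.27 with SE-BDEV and by 0.38 with CON-BDEV (adjusted p of 0.0345 and 0.0320). Creb3, a relative of ATF6, rose by 0.15 with SE-BDEV (adjusted p of 0.0460), as did Tmbim6, a protein of the ER membrane that protects from cell death, by 0.13 (adjusted p of 0.0308; named after its values were seen).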
